A study of Mus musculus with 12 samples.

Results

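Resident alveolar macrophages carry a set of transcripts by which they are told from other lung macrophages. The genes described here are 7 of these identity markers, Siglecf, Krt79, Ear1, Ear2, Cd9, Car4 and Plet1, taken by name, with earlier results of these data known, from a deposited table of 20551 genes. Each was found in the table, and each passed the filter on low counts. The RNA came from airway macrophages (AMs) of C57BL/6 mice aged 6 weeks. Scnn1b-transgenic mice (Tg), in which a club cell promoter drives Scnn1b, one chain of the sodium channel ENaC, in airway epithelium and mucus builds up, were compared with wild-type (WT) littermates. Cells pooled from 3 to 4 animals were split and cultured for 12 h with medium alone or with 100 ng/ml lipopolysaccharide (LPS) of Pseudomonas aeruginosa. This gave 4 groups of 3 libraries (WT medium, WT LPS, Tg medium and Tg LPS) from 6 pools, WT 16, 17 and 18 and Tg 17, 18 and 19. The transgene acts in epithelial cells and not in the macrophages, so its RNA is no check of the genotype here, and Scnn1b held 0 to 40 counts per library without separating the genotypes.

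The sources give different accounts of the cells. The labels describe lavage cells that adhered to plastic, whereas the methods for sequencing describe cells sorted from digested lung on CD45.2, Siglec-F and CD11c. In the second account the protein of Siglecf was itself used to choose the cells, before the culture step, in all groups alike. Bulk RNA of this kind cannot tell fewer cells of a type from less RNA per cell. A library held 48.2 to 60.9 M counts, and replicates are pools of animals, so each SD below is a spread between pools. The SE of a fitted difference comes from a model that treats all 12 libraries as separate, also those of the same pool.

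Resident alveolar macrophages settle in the airspaces around birth, renew themselves there, clear surfactant and inhaled particles, and depend on GM-CSF, TGF-beta and the lipid-sensing nuclear receptor PPAR-gamma. Siglec-F, a sialic acid-binding lectin with inhibitory signalling motifs, is the surface protein used most often to gate them in the mouse. Car4 encodes a carbonic anhydrase held on the outer membrane by a lipid anchor, Krt79 a type II keratin, Cd9 a tetraspanin that organises membrane partners, Plet1 a lipid-anchored surface glycoprotein, and Ear1 and Ear2 secreted ribonucleases of the RNase A family. Several are shared with other cells: Siglecf and the Ear genes with eosinophils, Car4 with capillary endothelium, and Cd9 with many cell types.

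Ear1 and Ear2 are neighbouring copies on chromosome 14, and how alike they are bears on how far their counts can be read separately. Their promoters (RefSeq, GRCm38.p6, 300 bases around the gene start) are printed here, with capitals at the bases that differ in the alignment of the pair. Ear1 lies at chr14:43819590-43819889 on the minus strand and Ear2 at chr14:44102404-44102703 on the plus strand.
Ear1: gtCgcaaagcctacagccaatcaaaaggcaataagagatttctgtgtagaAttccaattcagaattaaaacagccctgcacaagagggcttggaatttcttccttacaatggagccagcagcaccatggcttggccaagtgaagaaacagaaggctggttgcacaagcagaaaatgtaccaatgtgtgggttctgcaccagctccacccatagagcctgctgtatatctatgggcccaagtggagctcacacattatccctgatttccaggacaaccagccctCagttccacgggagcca
Ear2: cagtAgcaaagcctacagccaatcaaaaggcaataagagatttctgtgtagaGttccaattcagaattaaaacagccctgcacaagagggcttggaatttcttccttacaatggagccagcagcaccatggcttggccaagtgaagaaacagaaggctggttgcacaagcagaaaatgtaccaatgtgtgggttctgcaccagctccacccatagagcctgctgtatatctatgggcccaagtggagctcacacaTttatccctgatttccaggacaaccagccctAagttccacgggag
Of 298 aligned columns, 294 were identical, 3 were mismatches and 1 was a gap, an identity of 98.7%. The annotated transcripts were less alike, at 96.2% over 718 aligned columns, and they shared no stretch of read length (125 bases). Stretches of that length shared with other genes made up 13.9% of those of Ear1, all with the pseudogene Ear-ps9, which overlaps it on the same strand, and 10.3% of those of Ear2, all with Ear10. Counts of the pair are therefore uncertain to the extent that reads were split among these copies. Siglecf, Car4 and Krt79 shared none, while Cd9 and Plet1 shared 4.9% and 3.5% with antisense genes (Gm26728 and Plet1os) that the table does not list and from which unstranded counting cannot tell them apart.

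The promoters of Siglecf and Car4, the markers that moved furthest apart with LPS, are shown for contrast, with capitals at matches to a set of 5 short motifs.
Siglecf: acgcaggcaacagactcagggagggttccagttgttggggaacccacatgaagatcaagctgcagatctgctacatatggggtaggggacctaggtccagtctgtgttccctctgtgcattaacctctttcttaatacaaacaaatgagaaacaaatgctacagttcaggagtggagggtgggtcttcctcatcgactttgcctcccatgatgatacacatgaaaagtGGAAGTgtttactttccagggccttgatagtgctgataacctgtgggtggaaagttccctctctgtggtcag
Car4: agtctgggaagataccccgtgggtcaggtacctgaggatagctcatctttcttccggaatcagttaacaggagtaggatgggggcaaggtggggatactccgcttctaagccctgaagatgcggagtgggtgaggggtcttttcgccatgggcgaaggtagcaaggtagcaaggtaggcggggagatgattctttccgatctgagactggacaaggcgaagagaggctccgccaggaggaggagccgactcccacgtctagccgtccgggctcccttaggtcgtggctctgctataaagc
Siglecf lies at chr7:43351091-43351390 and Car4 at chr11:84957504-84957803, both on the plus strand. The motifs, searched on both strands, were GGAAGT (PU.1 and other ETS factors), TGANTCA (AP-1), a consensus of NF-kB, one of the interferon response element and TTGCNNAA (C/EBP), and in that order they occur in 23.7%, 7.8%, 1.6%, 3.4% and 10.8% of 32544 mouse promoters. Siglecf held GGAAGT at position -22 from the gene start, both Ear promoters held the C/EBP motif (at -92 in Ear1 and -90 in Ear2), Cd9 held the NF-kB motif (-229), and Plet1 held the C/EBP (-198) and AP-1 (-144) motifs. Car4 and Krt79 held none of the 5 in this window. A match of this kind describes letters and not a bound site.

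Levels were first ordered within each group, as counts per M library counts (CPM, scaled by TMM) per kilobase of annotated exon so that genes of different length can be compared. In WT medium, Cd9 stood at 2289 ± 235 CPM per kb (SD, n = 3), rank 13 of 13544 genes, followed by Ear2 at 481 ± 90.9. Plet1 (165 ± 7.06) and Ear1 (155 ± 42.6) came next and overlapped between libraries, then Siglecf (41.3 ± 1.84), Krt79 (11.9 ± 1.75) and Car4 (8.6 ± 1.48), of which the last pair overlapped as well. In WT LPS the order read Cd9 (1244 ± 168), Plet1 (234 ± 48.3), Ear2 (135 ± 16.1), Ear1 (67.9 ± 13.2), Car4 (24.1 ± 4.04), Siglecf (3.99 ± 0.86) and Krt79 (1.8 ± 0.178), with no overlap between neighbours. Car4 had thus moved from below Siglecf to above it, and Plet1 from beside Ear1 to above Ear2.

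With LPS the Tg means followed the order of the WT means, from Cd9 (1115 ± 83.3 CPM per kb, rank 31) to Siglecf (2.32 ± 0.543) and Krt79 (0.719 ± 0.647), though Ear1 (61.7 ± 26.5) and Car4 (38.2 ± 8.33) overlapped there. In Tg medium Cd9 (1970 ± 59.2) again led, before Ear2 (601 ± 84.8), and Plet1 (197 ± 10.7) and Ear1 (159 ± 44.1) overlapped. Car4 (15.6 ± 6.78) stood above Krt79 (6.2 ± 4.74), the reverse of WT medium, although the highest Krt79 library reached the lowest Car4 library. Added up, the 7 markers came to between 5048 and 5965 CPM in WT medium, between 2984 and 3536 CPM in WT LPS, between 4990 and 5271 CPM in Tg medium and between 2738 and 3214 CPM in Tg LPS. Cd9 alone made up 74.3% to 84.4% of that sum in every library, so the sum mostly follows Cd9.

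**Figure D1:**
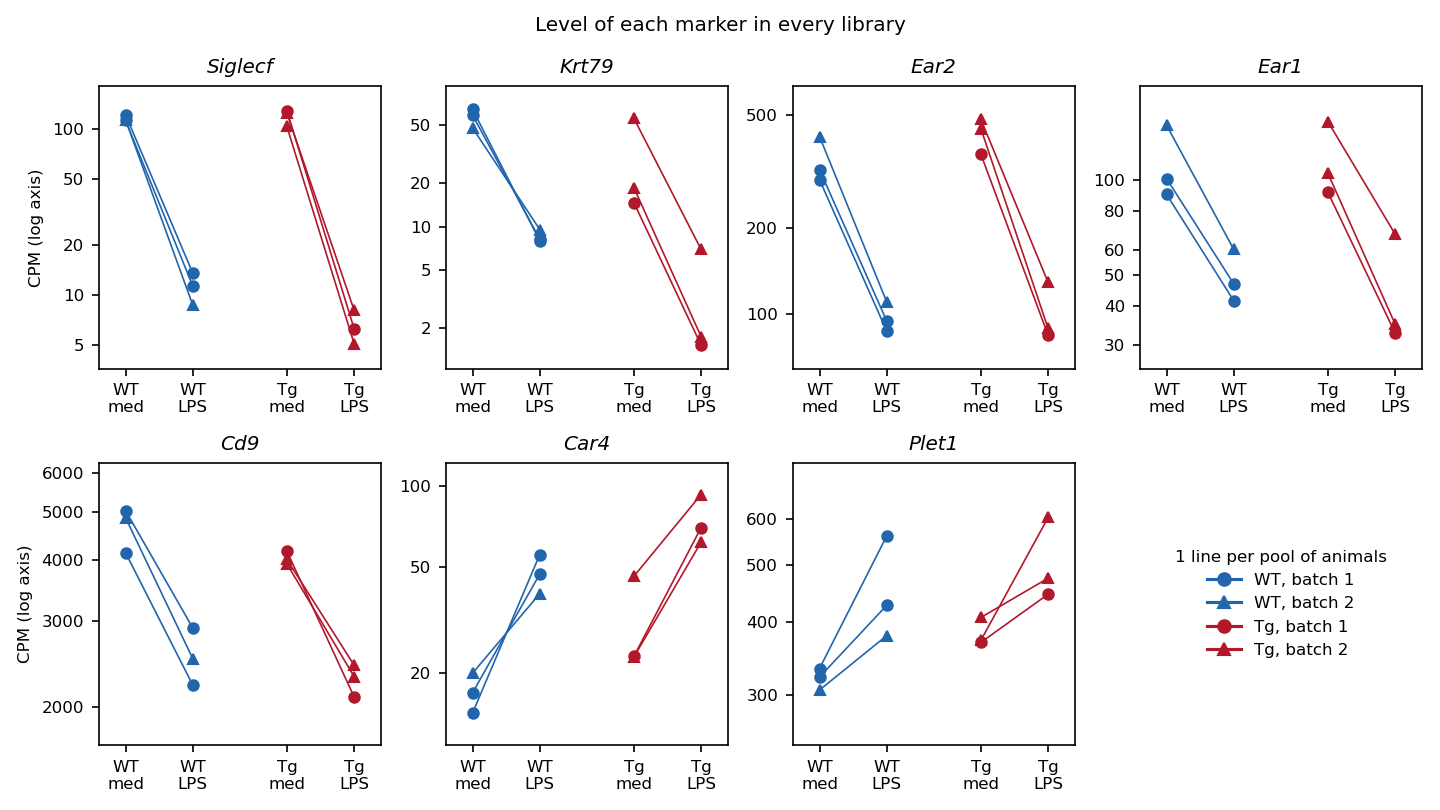
Level of each marker in every library, in CPM on a log axis, with 1 point per library and 1 line joining the medium and the LPS library of a pool. Blue is WT, red is Tg, circles are batch 1 and triangles batch 2. Siglecf, Krt79, Ear2, Ear1 and Cd9 slope down and Car4 and Plet1 slope up in all 6 pools. Tg pool 19 sits above the other Tg pools in both conditions for Krt79, Ear1, Ear2 and Car4.

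The effect of 12 h of LPS was asked first. All 7 markers passed the test in WT cells (edgeR quasi-likelihood, adjusted p under 0.05), 5 lower and 2 higher, against 31.8% of all 13729 genes tested (16.2% lower and 15.5% higher). In Tg cells the same 7 passed in the same directions, against 38.1% of all genes (18.7% lower and 19.3% higher). The median log2 difference of the 7 was -1.18 in WT and -1.38 in Tg cells, where the median over all genes was 0.0 and -0.02. The medium and LPS libraries of a pool share their animals, and every marker moved in its direction in 6 of 6 pools. How many of all genes kept a single direction in 6 of 6 pools, or had no overlap between the groups, was not counted. With the pool as a replicate block, all 7 were called in both genotypes as well.

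Siglecf, the sialic acid-binding lectin, fell furthest. In WT medium its libraries held 112, 121 and 113 CPM (pools 16, 17 and 18), and in WT LPS 11.3, 13.5 and 8.67 CPM. In Tg medium they held 128, 103 and 124 CPM (pools 17, 18 and 19), and in Tg LPS 6.25, 5.08 and 8.08 CPM. All medium libraries lay close together regardless of genotype, and the LPS libraries lay far below them with no overlap. The difference was -3.38 ± 0.18 on the log2 scale in WT cells (SE, adjusted p = 2.09e-07), 10.4-fold lower, and -4.19 ± 0.19 in Tg cells (adjusted p = 3.84e-08), 18.2-fold lower. Even so, 267 or more counts of Siglecf remained in every library.

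Krt79, the keratin, fell by a similar order with more spread between pools. WT medium libraries held 58.3, 63.9 and 47.6 CPM and WT LPS libraries 8.19, 7.98 and 9.54 CPM. Tg medium libraries held 14.6, 18.5 and 55.4 CPM and Tg LPS libraries 1.53, 1.75 and 6.96 CPM. Tg pool 19 was about as high as the WT pools in medium and stood above the other Tg pools in both conditions, yet its own fall with LPS (-2.9) lay between those of Tg pools 17 and 18 (-2.89 and -3.08, log2 CPM). LPS lowered Krt79 by a log2 difference of -2.78 ± 0.53 in WT (adjusted p = 0.00207) and -3.1 ± 0.56 in Tg cells (adjusted p = 0.00113). The fitted Tg value moved when 1 library of pool 19 was left out and the other library of that pool was kept. It was -4.05 without the LPS library and -2.36 without the medium library (adjusted p = 0.000419 and 0.00382). The change within single Tg pools ran only from -3.08 to -2.89.

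The ribonuclease genes fell less, and Ear2 fell further than Ear1. Ear2 held 321, 296 and 420 CPM in WT medium and 94.3, 86.9 and 110 CPM in WT LPS, and 364, 448 and 483 CPM in Tg medium and 84.1, 88.8 and 129 CPM in Tg LPS. No library with LPS reached the lowest medium library of its genotype. The log2 difference of Ear2 was -1.83 ± 0.12 in WT (adjusted p = 9.38e-07) and -2.1 ± 0.12 in Tg cells (adjusted p = 2.34e-07). Ear1 held 101, 90 and 149 CPM in WT medium against 46.9, 41.5 and 60.3 CPM in WT LPS, and 91.4, 105 and 153 CPM in Tg medium against 32.8, 35 and 67.4 CPM in Tg LPS. WT pool 18 and Tg pool 19 were the highest of their groups in both conditions. Ear1 differed by -1.18 ± 0.21 in WT (adjusted p = 0.0013) and -1.38 ± 0.21 in Tg cells (adjusted p = 0.000341).

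The counts of the pair were also followed as a share. Ear1 made up 23.3% to 26.1% of Ear1 plus Ear2 counts in WT medium and 32.3% to 35.5% in WT LPS, and 18.9% to 24% in Tg medium and 28% to 34.3% in Tg LPS. The share rose in each of the 6 pools, with no overlap between medium and LPS within a genotype. This share was looked at after the values were known and was not tested. With the 7 Ear features of the table summed into 1, the log2 difference with LPS was -1.66 in WT and -1.91 in Tg cells, so the fall was also seen without dividing reads among copies.

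**Figure D2:**
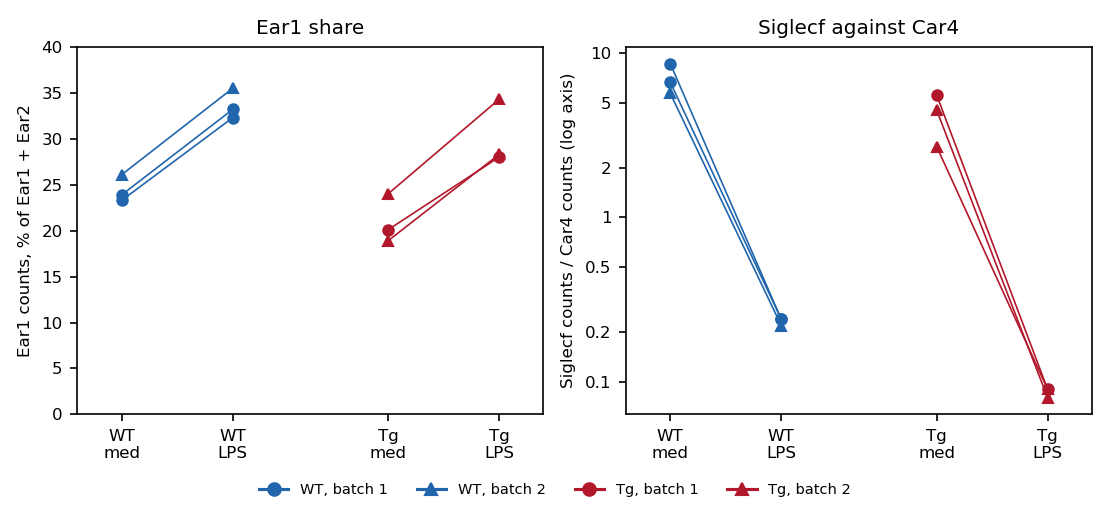
Left, Ear1 counts as a percentage of Ear1 plus Ear2 counts, and right, Siglecf counts divided by Car4 counts on a log axis, with 1 point per library and 1 line per pool (blue WT, red Tg, circles batch 1, triangles batch 2). The Ear1 share rises in each pool, by similar steps, and the ratio drops from 2.7 to 8.62 in medium to 0.08 to 0.24 with LPS.

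Cd9, the tetraspanin, was the most abundant marker and fell by less than 1 log2 unit. Its libraries held 5034, 4130 and 4869 CPM in WT medium and 2901, 2218 and 2511 CPM in WT LPS, and 4159, 3921 and 4003 CPM in Tg medium and 2098, 2308 and 2435 CPM in Tg LPS. The groups did not overlap within a genotype, and the Tg medium libraries were the tightest set. The log2 difference was -0.88 ± 0.11 in WT (adjusted p = 0.000135) and -0.82 ± 0.11 in Tg cells (adjusted p = 0.000162), and Cd9 stayed among the 31 highest genes per kb in every group mean.

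Car4, the membrane carbonic anhydrase, went the other way. It held 16.8, 14.1 and 19.9 CPM in WT medium and 46.9, 55.5 and 39.6 CPM in WT LPS, and 23, 22.9 and 46 CPM in Tg medium and 70.1, 61.8 and 93.3 CPM in Tg LPS. Tg pool 19 was the highest of its genotype in both conditions, and its medium library reached the level of WT libraries with LPS. The log2 difference was 1.5 ± 0.27 in WT (adjusted p = 0.00146) and 1.3 ± 0.27 in Tg cells (adjusted p = 0.00256). Siglecf counts outnumbered Car4 counts in every medium library, by 5.68 to 8.62 in WT and 2.7 to 5.56 in Tg cells, whereas with LPS Car4 outnumbered Siglecf by 4.12 to 4.57 in WT and 11.2 to 12.2 in Tg cells. Of the endothelial markers, which bear on Car4, Ednrb rose with LPS (mean 0.0543 CPM in WT medium and 3.1 CPM in WT LPS, 0 CPM in Tg medium and 1.72 CPM in Tg LPS), Tek was at 0 in every library, and Pecam1, Cdh5, Kdr and Cldn5 held at most 23 counts in any library. The summed endothelial list, nearly all of it Vwf, ran from 67.4 to 96.5 CPM in medium and from 42.1 to 76.3 CPM with LPS, and the part of these cells in the rise of Car4 was not tested.

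Plet1, the surface glycoprotein, rose least. It held 322, 333 and 306 CPM in WT medium and 427, 561 and 379 CPM in WT LPS, and 369, 372 and 407 CPM in Tg medium and 446, 603 and 475 CPM in Tg LPS. WT pool 17 and Tg pool 18 rose by 0.75 and 0.69 on the log2 CPM scale, the other 4 pools by 0.22 to 0.41. The fitted difference was 0.51 ± 0.15 in WT (adjusted p = 0.0214) and 0.41 ± 0.15 in Tg cells (adjusted p = 0.0468). The Tg call was close to the threshold: adjusted p was 0.052 with the legacy dispersion estimates of edgeR, and it was 0.053 to 0.199 when any medium library of either genotype or the LPS library of Tg pool 18 or 19 was left out, the highest without that of pool 18 (log2 difference 0.25). In WT cells adjusted p was 0.0771 (log2 difference 0.33) without the WT LPS library of pool 17, and 0.0502 to 0.0664 when any of the WT medium libraries was left out.

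**Figure D3:**
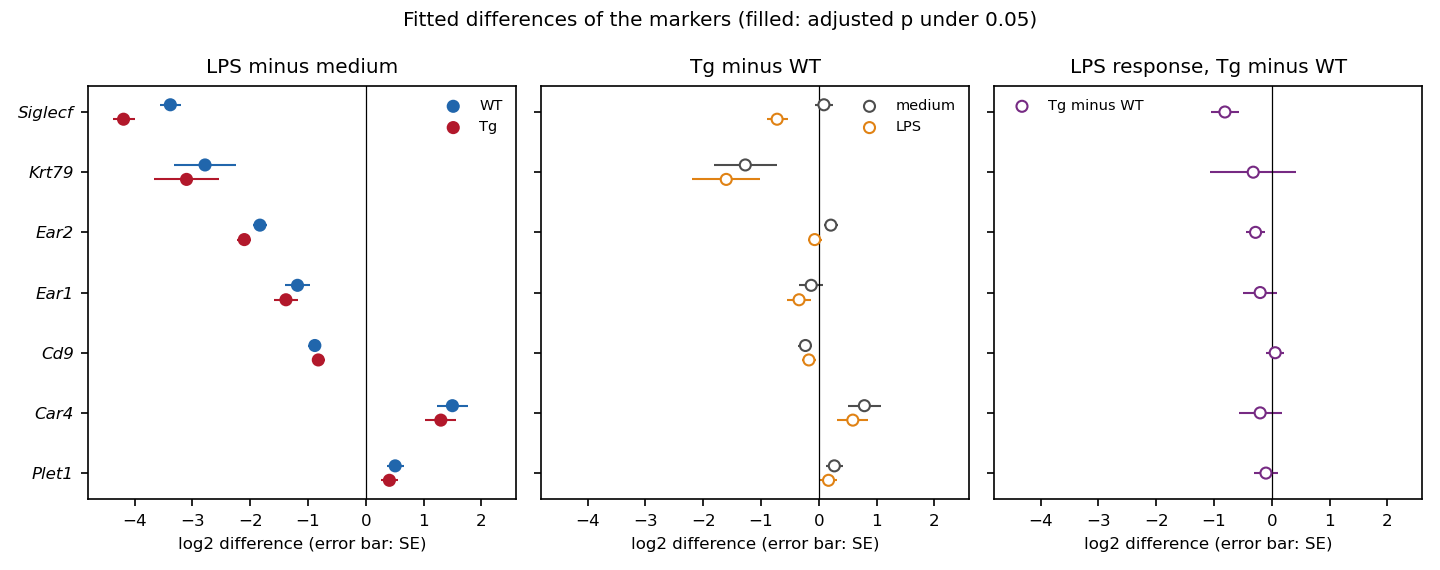
Fitted log2 differences of the 7 markers with their standard errors, for LPS against medium in each genotype (left), Tg against WT in each condition (middle) and the difference of the LPS responses (right). Filled points passed adjusted p under 0.05; they appear in the left panel and in neither of the others. In the middle panel Krt79 (-1.27 and -1.6) and Siglecf with LPS (-0.72) lie furthest below 0.

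The comparison of genotypes asked whether the markers were already lower in Tg cells. In medium, 0 of 7 passed the edgeR test, against 0.335% of all genes, with 2 at an unadjusted p under 0.05, and 0 of 7 passed in DESeq2, against 3.87% of the 12930 genes to which it gave an adjusted p. The edgeR share of all genes stands for 46 calls, a number that ran from 3 to 49 when single libraries were left out. Car4 was higher in Tg medium by 0.79 ± 0.28 on the log2 scale (unadjusted p = 0.0162, adjusted p = 0.253), and all 3 Tg libraries lay above the 3 WT libraries. How many of all genes lay apart in this way was not counted. Krt79 stood at -1.27 ± 0.54 (unadjusted p = 0.0392, adjusted p = 0.341), with Tg pool 19 inside the WT range. Siglecf differed by 0.09 ± 0.16, Ear1 by -0.13 ± 0.21, Ear2 by 0.21 ± 0.12, Cd9 by -0.23 ± 0.12 and Plet1 by 0.27 ± 0.15, and none of these 5 passed. The Plet1 libraries, like those of Car4, did not overlap (369 to 407 CPM in Tg medium and 306 to 333 CPM in WT medium).

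With LPS, 0 of 7 differed between the genotypes in edgeR, against 0.051% of all genes, again with 2 at an unadjusted p under 0.05. Siglecf was the lower in Tg LPS, at 6.47 ± 1.51 CPM against 11.1 ± 2.4 CPM in WT LPS (SD, n = 3), without overlap (log2 difference -0.72 ± 0.18, unadjusted p = 0.00239, adjusted p = 0.259). It was the 1 marker that DESeq2 called (adjusted p = 0.019), against 1.06% of all genes. The difference was -0.93 within batch 1, where pool 17 was the only Tg pool, and -0.41 within batch 2, where pool 18 was the only WT pool. Krt79 stood at 3.42 ± 3.08 CPM in Tg LPS against 8.57 ± 0.845 CPM in WT LPS (log2 difference -1.6 ± 0.59, unadjusted p = 0.0204, adjusted p = 0.562), and Car4 at 75.1 ± 16.4 CPM against 47.3 ± 7.94 CPM (0.59 ± 0.27, adjusted p = 0.714), both without overlap. The share of all genes without overlap in this comparison was not counted. The remaining 4 markers lay between -0.34 and 0.17 on the log2 scale.

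Krt79 is the marker whose genotype call changed when the whole of 1 pool was left out. With both libraries of Tg pool 19 left out, a choice made after its values were seen, Krt79 was lower in Tg cells by -1.79 in medium (edgeR adjusted p = 0.0116) and by -2.39 with LPS (adjusted p = 0.00503). When only the medium library or only the LPS library of that pool was left out, 0 markers were called in either condition. Within batch 1, where pool 17 was the only Tg pool, the difference was -2.03 in medium and -2.08 with LPS. Within batch 2, which held Tg pool 19 and where pool 18 was the only WT pool, the difference was -0.56 and -1.29. Epithelial cells also hold keratin RNA. Of their markers, 0 of 10 tested passed in either genotype comparison, with 1 in medium and 5 with LPS at an unadjusted p under 0.05, and the 12 listed genes summed in WT cells to 89.3 to 115 CPM with medium and 84.7 to 122 CPM with LPS, and in Tg cells to 47.3 to 86.8 CPM with medium and 39.8 to 69.6 CPM with LPS, with Scgb1a1 and Sftpc the largest. Their part in the Krt79 values was not tested.

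The LPS response itself was then compared between the genotypes. In this interaction 0 of 7 markers passed edgeR, against 0% of all genes, with 1 at an unadjusted p under 0.05 and 0 called by DESeq2, against 0.561% of all genes. That marker was Siglecf, which fell further in Tg cells by a log2 difference of -0.81 ± 0.24 (unadjusted p = 0.00603, adjusted p = 0.575). Its change ran from -4.25 to -3.86 log2 CPM over the 3 Tg pools and from -3.63 to -3.12 over the 3 WT pools, ranges that did not meet. The share of all genes with such ranges was not counted. For the other 6 markers the difference of responses ran from -0.32 ± 0.74 (Krt79) to 0.06 ± 0.16 (Cd9), and the sign turned for Car4, Krt79, Cd9, Plet1 and Ear1 when single libraries were left out.

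To set the markers in their context, 30 other genes that characterise alveolar macrophages were read in the same fit. With LPS 20 of these were lower and 4 higher in WT cells, against 16.2% and 15.5% of all genes tested. In Tg cells 20 were lower and 4 higher, against 18.7% and 19.3%. Their median log2 difference was -0.69 in WT and -1.04 in Tg cells, where the median over all genes was 0.0 and -0.02. The 4 that rose were the same in both genotypes. Slc7a2, a transporter of arginine and lysine, stood at 206 ± 21.3 CPM in WT medium against 1668 ± 312 CPM in WT LPS (log2 difference 3.02 ± 0.13, adjusted p = 4.55e-08), and at 269 ± 28.9 against 2243 ± 119 CPM in the Tg groups (3.06 ± 0.13). Car13, a carbonic anhydrase of the cytosol, rose by 2.27 ± 0.09 (adjusted p = 2.03e-08) and by 2.43 ± 0.09 in Tg cells. Marco, a scavenger receptor for bacteria and particles, rose by 0.99 ± 0.27 (adjusted p = 0.015) and by 1.62 ± 0.27, and Olr1, a receptor for oxidised lipoprotein, by 0.5 ± 0.08 (adjusted p = 0.000632) and by 0.4 ± 0.08. So Car4 and Plet1 were not alone among such genes in rising.

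The largest falls in the list in WT cells were those of Fabp4, Cd2, Ear6, Kcnip4 and Pparg. Fabp4, a fatty acid carrier, fell to 25.4 ± 6.38 CPM from 235 ± 40.5 CPM in WT (log2 difference -3.23 ± 0.22, adjusted p = 1.32e-06) and to 27.8 ± 9.25 CPM from 336 ± 50.1 CPM in Tg cells (-3.62 ± 0.23). Cd2, an adhesion molecule better known from lymphocytes, fell as well (-2.7 ± 0.12, adjusted p = 6.79e-08, and -3.36 ± 0.13 in Tg cells). Pparg, which encodes PPAR-gamma, fell to 28.9 ± 1.34 CPM from 122 ± 1.05 CPM in WT (-2.08 ± 0.07, adjusted p = 1.55e-08) and to 26.6 ± 0.841 CPM from 152 ± 7.94 CPM in Tg cells (-2.51 ± 0.07). Ear6, a relative of Ear1 and Ear2, also fell (-2.66 ± 0.41, adjusted p = 0.000463, and -1.84 ± 0.39 in Tg cells). Kcnip4 was low throughout, with 72 to 82 counts in the WT medium libraries and 10 to 18 after LPS, and with 67 to 95 and 2 to 8 counts in the Tg libraries.

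Not every gene of the list moved. Bhlhe41, a transcription factor, stood at 205 ± 17.5 CPM in WT LPS and 220 ± 23.4 in WT medium (adjusted p = 0.339), and Csf2ra, the GM-CSF receptor chain, at 466 ± 59 and 499 ± 66.3 CPM (adjusted p = 0.437). Itgax, which encodes CD11c, missed the threshold in WT cells (log2 difference -0.31 ± 0.14, adjusted p = 0.116) and passed it in Tg cells (-0.59 ± 0.14, adjusted p = 0.00582). Between the genotypes 1 of the 30 passed in medium, against 0.335% of all genes. It was Lpl, the secreted lipase, which was lower in Tg cells (2856 ± 150 against 4031 ± 340 CPM, -0.52 ± 0.07, adjusted p = 0.0219). With LPS and in the interaction 0 passed, against 0.051% and 0% of all genes. There 10 and 8 had an unadjusted p under 0.05, and DESeq2 called 6 and 1 of the 30, beside the 1.06% and 0.561% of all genes. The Lpl call was lost when any of 4 single medium libraries was left out (Tg 17 or 19, WT 16 or 18).

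**Figure D4:**
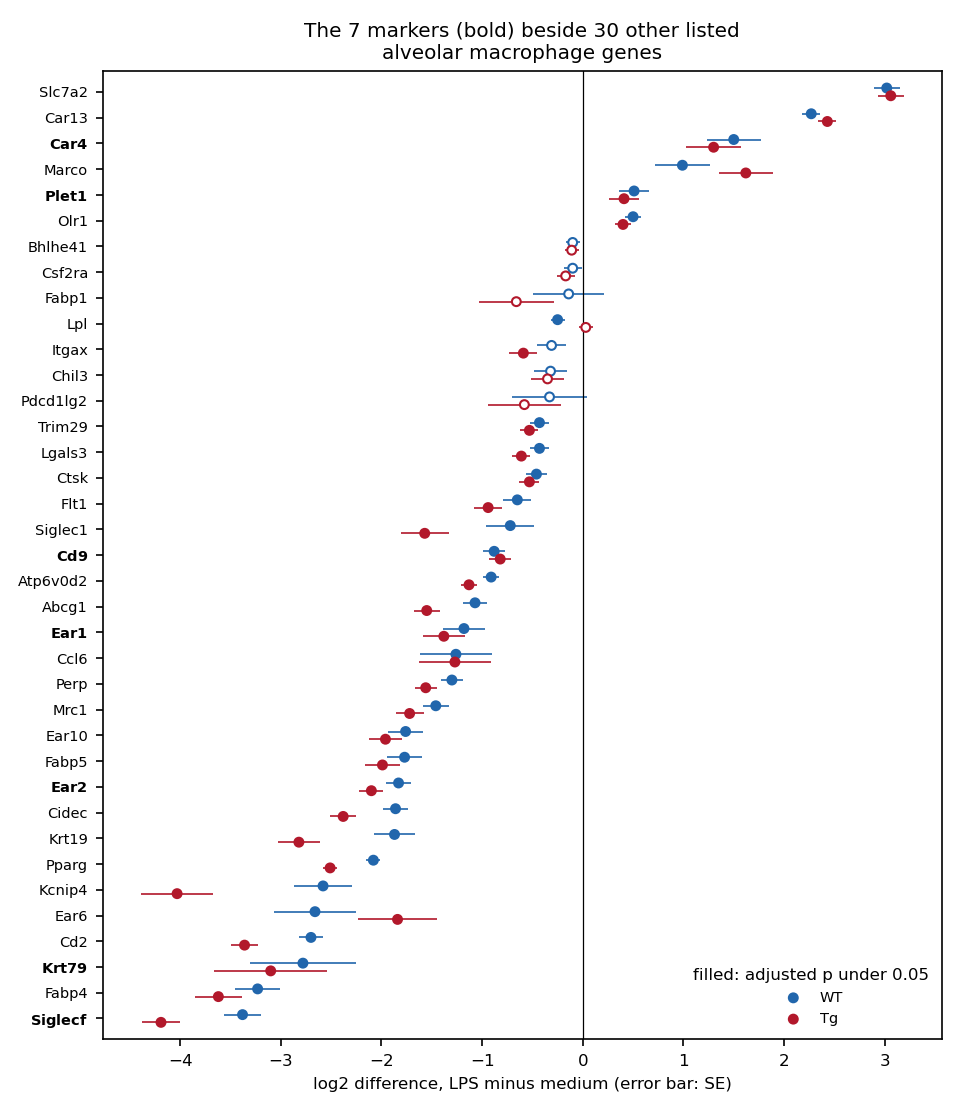
Log2 difference with LPS in WT (blue) and Tg cells (red) for the 7 markers, in bold, and 30 other genes of alveolar macrophages, ordered by the WT value, with standard errors and filled points for adjusted p under 0.05. Siglecf has the lowest WT value of all genes plotted, and Car4 and Plet1 lie with Slc7a2, Car13, Marco and Olr1 on the right of 0.

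Relatives of each marker were read next, to see whether a family moved with its member. Siglece, an inhibitory Siglec of myeloid cells, rose to 60.1 ± 10.5 CPM with LPS from 3.17 ± 0.331 CPM in WT medium (log2 difference 4.25 ± 0.16, adjusted p = 2.03e-08) and to 62.5 ± 8.59 CPM from 1.71 ± 0.361 CPM in Tg cells (5.19 ± 0.17). In CPM it went from far below Siglecf to above it. Cd33 rose as well (0.79 ± 0.1 and 0.99 ± 0.1, adjusted p = 0.000136 in WT), Siglec1 fell (-0.72 ± 0.24, adjusted p = 0.0388, and -1.57 ± 0.24 in Tg cells), and Cd22 and Mag did not pass. Among the carbonic anhydrases Car5b of the mitochondrion fell (-0.79 ± 0.22 and -1.05 ± 0.23, adjusted p = 0.0164 in WT) while Car13 rose with Car4. Krt19 fell with Krt79 (-1.87 ± 0.2 and -2.82 ± 0.21, adjusted p = 3.2e-05 in WT), and Krt8 did not pass in either genotype. Of 8 carbonic anhydrases tested beside Car4, 4 were lower and 2 higher in WT cells, against 16.2% and 15.5% of all genes. In Tg cells 3 were lower and 3 higher, against 18.7% and 19.3%. Of 7 keratins tested beside Krt79, 2 were lower and 1 higher in each genotype, beside the same shares of all genes.

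Of 15 tetraspanins tested beside Cd9, 6 were lower and 1 higher in WT cells, against 16.2% lower and 15.5% higher of all genes. In Tg cells 5 were lower and 3 higher, against 18.7% and 19.3% of all genes. Tspan14 fell in WT cells (-1.07 ± 0.07, adjusted p = 6.78e-07), as did Cd63, the tetraspanin of lysosomes (-0.65 ± 0.17, adjusted p = 0.0113). Cd53 rose by 0.55 ± 0.13 (adjusted p = 0.00792), and Cd151 and Tspan5 did not pass. Of 7 RNase A genes tested beside Ear1 and Ear2, 5 were lower in WT and 6 in Tg cells, and 0 were higher in either, beside the same shares of all genes. In WT cells Rnase4 (-1.23 ± 0.17, adjusted p = 0.000204), Rnase6 (-2.23 ± 0.46, adjusted p = 0.00335) and Ear10, which shares sequence with Ear2 (-1.76 ± 0.17, adjusted p = 1.45e-05), were among those that fell.

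The genes whose pattern over the 12 libraries came nearest to each marker were found by the root mean square difference of centred log2 CPM, over the 9101 genes whose mean reached 5 CPM. For Siglecf these were Tmem154 (0.279), Rgs2 (0.446) and Cd2 (0.452). Krt79 had no close neighbour, the nearest being Dgkg (0.847), Cd2 (0.857) and Siglecf itself (0.901). For Ear2 they were Sirpb1a (0.156), Cdc42ep3 (0.162) and Sirpb1c (0.163), and for Ear1 Rab29 (0.242), Cxcl14 (0.255) and Klf2 (0.262). The nearest to Cd9 were Msra (0.123), Uchl3 and Snx24 (both 0.125), to Car4 Tap1 (0.298), Mov10 (0.324) and Ass1 (0.327), and to Plet1 Rara (0.144), Csf2rb (0.145) and Bub1b (0.146). Among the markers themselves Ear1 lay nearest to Ear2 and to Cd9 (0.39 each), and Siglecf and Car4 lay furthest apart (2.68).

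Other cell types that share the markers were measured through their own genes. Of 8 eosinophil markers 4 were in the table and 0 passed the filter on low counts: Prg2, Ccr3, Alox15 and Adgre4 held 0 to 13 counts in any library and summed to at most 0.0611 CPM in WT medium, 0.451 in WT LPS, 0.223 in Tg medium and 0.285 in Tg LPS. Epx, Prg3, Il5ra and Mbp1 were not found in the table under these symbols and could not be read. The 10 markers of monocytes and recruited macrophages summed to 27 to 36 CPM in WT medium and 18.6 to 19.6 CPM in WT LPS, and to 31.8 to 40.7 and 19.4 to 20.5 CPM in the same conditions of Tg cells. Their defining genes were near 0: Ly6c2 averaged 0.0955 CPM in WT medium, 0.39 in WT LPS, 0.185 in Tg medium and 0.995 in Tg LPS, and Ccr2 averaged 0.447, 0.0803, 0.551 and 0.147 CPM in that order. With LPS, Fcgr1 and Ccr2 fell in both genotypes, and Ly6c2 and Vcan rose in Tg cells.

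The 9 listed interstitial macrophage markers, 7 of them in the table, summed to 0.397 to 2.63 CPM. Neutrophil markers, 6 of 10 in the table, summed to 5.62 to 14.9 CPM over all libraries, but their genes moved apart with LPS. Cxcr2, a chemokine receptor, fell to 0.186 CPM from 4.01 CPM in WT (log2 difference -4.41 ± 0.47, adjusted p = 3.28e-05) and to 0.232 from 7.5 CPM in Tg cells (-4.98 ± 0.42). S100a8, a calcium-binding protein of myeloid cells, rose to 7.32 CPM from 2.86 CPM in WT (1.34 ± 0.29, adjusted p = 0.00483) and to 11.1 from 4.53 CPM in Tg cells (1.28 ± 0.28). Camp rose in Tg cells (0 CPM in medium, 0.373 CPM with LPS), and S100a9 and Ngp held at most 5 counts in any library. T, NK and B cell markers, 11 of 12 in the table, summed to 0.453 to 2.1 CPM. The dendritic cell list, 6 of 8, summed to 2.79 to 3.78 CPM in WT medium against 9.47 to 10.2 CPM in WT LPS, and to 5.12 to 7.23 against 13.4 to 20.3 CPM in Tg cells, most of it Ccr7. Ccr7 and Zbtb46 rose with LPS in both genotypes, whereas Clec9a, at 0.348 CPM in WT medium, fell (-4.03 ± 1.16 and -2.84 ± 0.92 in Tg cells). Ccr7 was also higher in Tg than in WT medium (1.33 ± 0.22, adjusted p = 0.042), against 0.335% of all genes called there. The part of these cell types in the changes of the 7 markers was not tested.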

How the data were processed

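RNAseq was performed on 12 libraries of cultured AMs, made with a low-input kit for full-length cDNA and sequenced as pairs of 125 bp reads. The authors aligned reads to mm10 with HISAT2 (unstranded), assembled transcripts with StringTie and GENCODE M20, and deposited estimated counts per gene as whole numbers, with no filter stated. Conversion of coverage makes 1 read pair worth about 5 counts (55.3% of low values were 0 or 3 modulo 5, where 40% is even), so counting error is larger than the totals imply, and counts divided by 5 were an alternative. Symbols of 20158 IDs came from GENCODE M21.

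Genes were kept by filterByExpr (minimum count 10, total 15), leaving 13729. TMM factors and a quasi-likelihood model with terms for group and batch (1 or 2 in the labels) were fitted in edgeR 4.0.16 (R 4.3.3) with legacy=FALSE. The authors adjusted for the date of library preparation, and that the batch label stands for this date was assumed. Tests were two-sided and adjusted by Benjamini-Hochberg over all genes tested, with a threshold of 0.05. The script was tested on simulated data. CPM are TMM-scaled means ± SD, errors of fitted differences are SE, and changes by pool or batch are differences of log2 CPM plus 0.5. Alternatives used DESeq2 1.42.0 and limma 3.58.1, other scaling, filters and terms, and left out each library. Leaving out pool Tg 19 and the legacy dispersion estimates were chosen after seeing the data.

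The medium and LPS libraries of a pool come from the same animals and deviated together from their group means (r of 0.137 to 0.335 in the 6 pools). The members and lists were chosen with earlier results of these data known. Named beside the 7 members were the 5 largest rises and falls of the wider list among WT calls, its genotype calls, relatives with a mean of at least 5 CPM in a group (summarised for tetraspanins), and the 3 nearest patterns. Bhlhe41, Csf2ra, Itgax and markers of other cell types were named after their values were seen.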

Additional observations from a re-analysis of the deposited data

How the results depend on the processing

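Of 35 marker differences, those for LPS against medium kept their direction under every alternative run, and only the 2 calls of Plet1 were lost in any (in Tg cells also without the filter, adjusted p = 0.0584, without the batch term, 0.0509, with the label number, 0.0568, and without Tg pool 19, 0.0892). The replicate block by pool changed no call of a marker. The genotypes share only the label numbers 17 and 18 (r of 0.11 to 0.261 over genes), and with that number as the replicate block 1 marker, Krt79, was called in medium and 1 with LPS (adjusted p = 0.00558 and 0.0028), while Siglecf in medium turned to -0.07; pools WT 16 and Tg 19 have no partner there. Leaving out Tg pool 19 likewise gave 1 marker called in each condition, and turned the Car4 interaction to 0.04. DESeq2 called 1 marker with LPS. Of the 30 other genes, Tg against WT in medium gave 4 calls in DESeq2, 2 with the label number, 0 with only the 2 groups compared, 0 without Tg pool 19 and 0 to 1 when single libraries were left out; with LPS there were 6 in DESeq2 and 1 with the label number, and 1 in the interaction in DESeq2.

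Small differences changed sign. Ear1 in medium turned to 0.04 without the batch term and 0.11 with the Ear genes summed, and Ear2 with LPS to 0.05 without the batch term. Over single left-out libraries the interaction ran from -0.41 to 0.21 for Car4, -1.3 to 0.39 for Krt79, -0.03 to 0.18 for Cd9, -0.25 to 0.08 for Plet1 and -0.5 to 0.01 for Ear1, and Tg against WT with LPS from -0.02 to 0.34 for Plet1 and -0.21 to 0.05 for Ear2. The cause was not tested. Over all genes, Tg against WT in medium gave 46 calls, 500 in DESeq2, 77 with the label number, 28 without the batch term, 20 with only the 2 groups, 18 without the filter and 9 without Tg pool 19. Over single left-out libraries it ran from 3 to 49, lowest without the medium library of Tg 17 (3), Tg 19 (5), WT 18 (8) or WT 16 (10). With LPS 7 became 146 in DESeq2 and 2 to 10 over single left-out libraries, and in the interaction 0 became 77 and 0 to 1.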
